A study of Mus musculus with 6 samples.

Results

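Potassium channel genes were taken as the genes of the deposited count table whose symbol begins with Kcn, followed by the letters of a family and a number (Kcna1, Kcnj10, Kcnip2 and the like). The table held 93 such genes among 34745. They encode 30 voltage-gated pore subunits, 10 silent voltage-gated subunits, 15 inward rectifier subunits and 14 two-pore domain subunits. A further 8 were placed in the calcium- or sodium-activated class and 16 are auxiliary subunits, under 20 symbol prefixes in all. Kcnu1 (SLO3) is in the calcium- or sodium-activated class by gene family, not by what activates it. Antisense genes named after a channel, such as Kcnd3os, and Kcnq1ot1 were not counted among the 93. RNA came from the dorsal striatum of C57BL/6 mice aged 1 year, with 3 libraries labelled Ash1l heterozygous (Ash1l het) and 3 labelled wild type (WT), replicates 1 to 3 in each. The Ash1l protein is a chromatin enzyme that methylates histone H3 at lysine 36. The labels give neither the position of the mutated allele nor a Cre or other agent, nor do they say whether libraries of a genotype came from separate animals. Each p-value therefore reflects only how much these libraries varied. The comparison asks how the potassium channel repertoire of the striatum is composed at this age and whether it differed in Ash1l het mice.

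Potassium channels let potassium leave the cell and so set the resting potential, repolarise the action potential and limit repetitive firing. In spiny projection neurons, the main neurons of the striatum, inwardly rectifying channels hold the membrane at a very negative resting potential. A-type and delayed rectifier voltage-gated channels shape the slow approach to the first spike, and M-type channels and calcium-activated channels restrain firing. Astrocytes use inward rectifier and two-pore channels to take up and redistribute extracellular potassium.

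Library totals ran from 12080663 to 18798694 counts. Ash1l stood at 281, 198 and 253 CPM (counts relative to the library total, scaled with TMM, the trimmed mean of M-values method of edgeR) in Ash1l het replicates 1 to 3, below the 308, 295 and 293 CPM of WT, and the difference did not pass (log2 fold change -0.29, SE 0.13, edgeR quasi-likelihood adjusted p = 0.858). The labels' protocol gives the mice as male. Against this, Xist, the RNA that coats the inactive X of female cells, ranged from 1956 to 2957 CPM, and 4 Y-linked genes summed to 0 counts in 5 of the 6 libraries and to 1 count in the other. The defining markers of spiny projection neurons were present in all libraries. Ash1l het replicates 1 and 2 stood apart on the first principal component, which held 27.9% of the variance, at -28.1 and -28.5 against 4.18 to 23.8 for the other 4 libraries. The summed markers of several cell types were at an extreme in these 2 libraries, although single markers did not all follow their sum. The 11 spiny projection neuron markers summed to 8428 and 9032 CPM there, below the 9293 to 10516 of the other 4 libraries. Oligodendrocyte markers summed to 7026 and 8016 CPM, above the 5323 to 6707 of the others, and astrocyte markers to 5254 and 5172, above 3699 to 4990. Of the 7 oligodendrocyte markers, 6 were highest in Ash1l het replicate 2 and 0 in replicate 1, where Mag and Cnp were below every WT library. Of the 8 astrocyte markers, 3 were highest in replicate 1 and 5 in replicate 2, while Aldoc was lowest in replicate 1. By sign, 4 of the 8 were higher in Ash1l het and 4 lower. Markers of blood cells were higher in all 3 Ash1l het libraries for all 5 genes of their list, at sums of 56.1 to 123 CPM against 23.0 to 35.4 in WT. The astrocyte marker Gfap reached 412 and 733 CPM in Ash1l het replicates 1 and 2, against 62.1 to 154 elsewhere. In whole tissue, fewer cells of a type and less RNA per cell cannot be told apart.

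Levels are given as the deposited FPKM (fragments scaled by gene length and by library total), which allow genes to be compared with each other. Most potassium channel genes were detected in WT striatum, and a small number dominated. Of the 93 genes, 55 (59.1%) had a WT mean of at least 1 FPKM, against 33.9% of all genes in the table. The 10 highest held 55.5% of the summed WT level of all 93. In all, 9 genes were at or above 30 FPKM, 16 between 10 and 30, 30 between 1 and 10, 21 between 0.1 and 1, and 17 under 0.1.

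Kcnj4, encoding the strong inward rectifier Kir2.3, was the highest at 57.0, 64.2 and 60.3 FPKM in WT replicates 1 to 3, above 98.9% of all genes in the table. Kcnd2, the A-type voltage-gated subunit Kv4.2, followed at 54.0, 58.6 and 58.9 FPKM, and the WT ranges of these genes overlapped, although Kcnj4 was the higher of the pair within each library. Kcnip2, a calcium-sensing auxiliary subunit of Kv4 channels, gave 49.0, 51.0 and 52.3 FPKM, below every WT value of Kcnd2. The step from Kcnd2 down to Kcnip2 was thus larger than the spread between WT libraries, and the step from Kcnj4 to Kcnd2 was not.

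Kcnab1, a cytoplasmic beta subunit that speeds inactivation of Kv1 channels, lay at 49.3, 49.6 and 49.4 FPKM, within the range of Kcnip2. Kcnj10, the Kir4.1 channel of glial cells, gave 47.5, 42.5 and 44.1 FPKM. Kcnk1, the two-pore subunit TWIK1, gave 39.6, 40.7 and 41.3 FPKM. From Kcnab1 to Kcnj10, from Kcnj10 to Kcnk1 and from Kcnk1 to the next gene, the WT values of neighbours did not overlap.

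Kcnh3, encoding the Kv12.2 subunit, gave 33.8, 37.1 and 37.8 FPKM. Kcnip3, a second calcium-sensing protein, had a mean of 33.0 ± 1.47 FPKM (SD, n = 3). Kcnq3, a subunit of the M-type channel, was below Kcnip3 in every WT library at 28.9, 28.6 and 30.4 FPKM. Below it, Kcnab2 (23.5 ± 0.39 FPKM), Kcnj11 (18.3 ± 0.28) and Kcna4 (17.4 ± 0.28) also followed each other without overlap, and most neighbours further down the order overlapped.

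**Figure D1:**
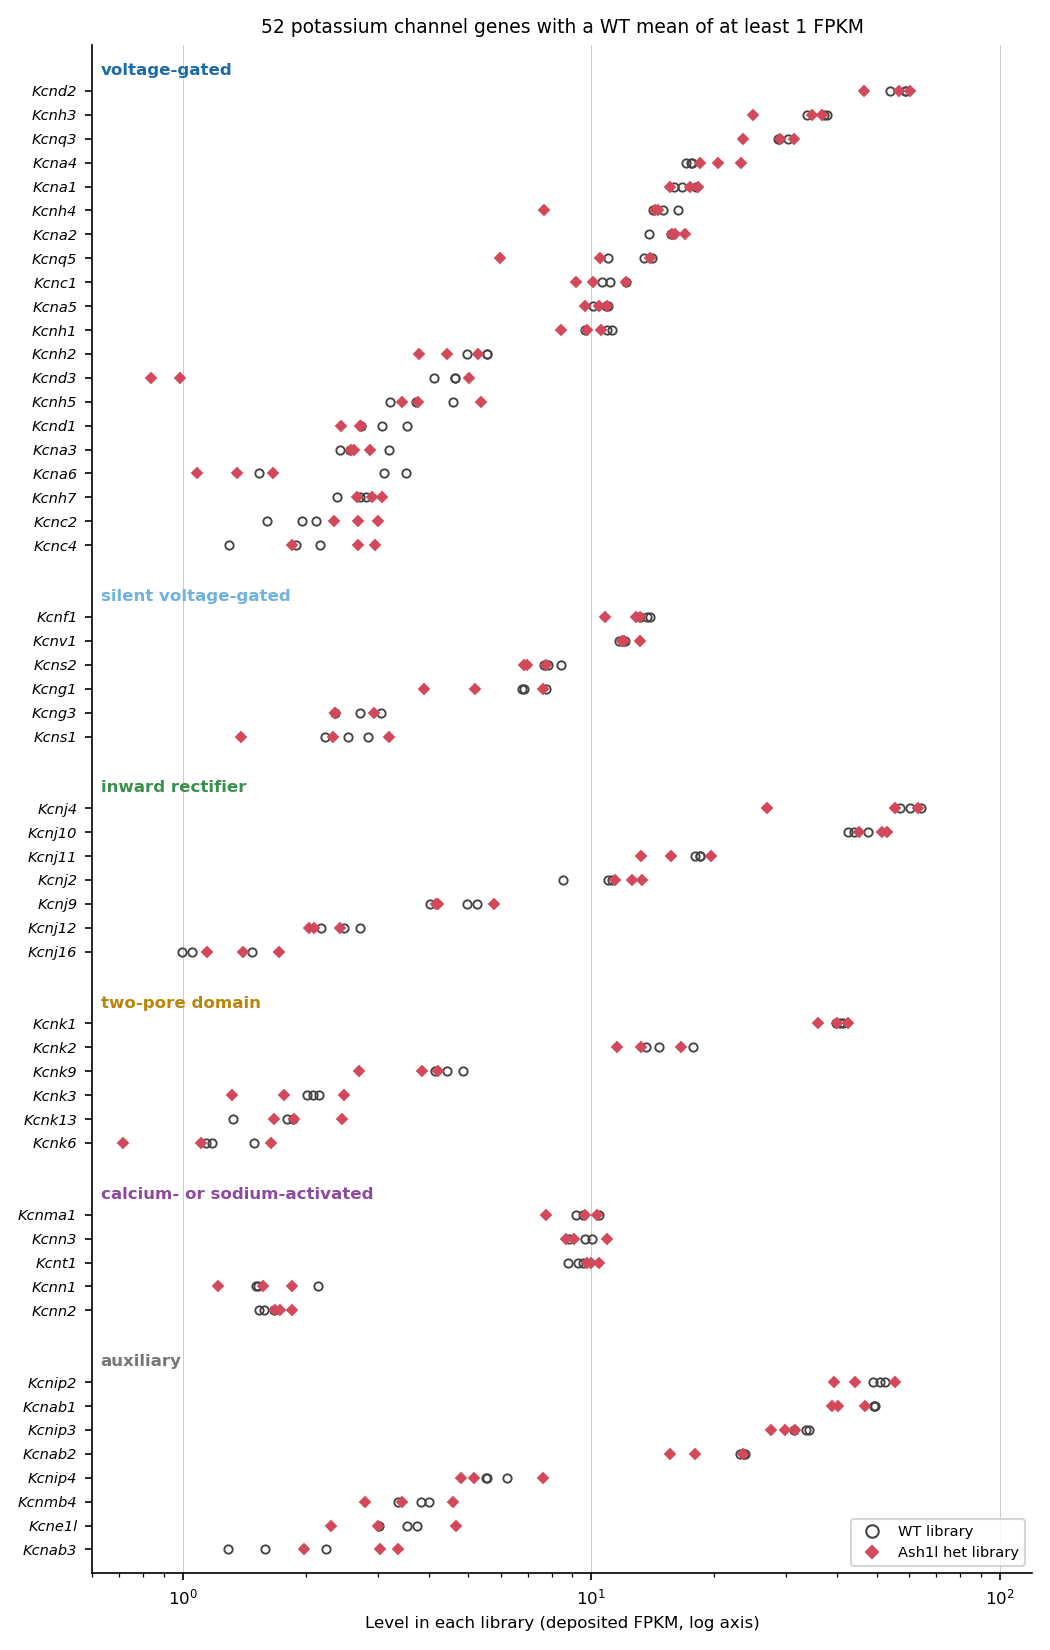
Level of 52 potassium channel genes with a WT mean of at least 1 FPKM, on a log axis, with one symbol per library (open circles, 3 WT libraries; filled diamonds, 3 Ash1l het libraries) and genes ordered by WT mean within each class. Most diamonds lie among or close to the circles, while 2 of the 3 Ash1l het libraries lie far to the left for Kcnd3 and 1 of 3 for Kcnj4, Kcnh4 and Kcnq5.

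By class, voltage-gated pore subunits made up 40.5% ± 0.22 of the summed WT level, auxiliary subunits 22.1% ± 0.22, inward rectifiers 18.5% ± 0.20, two-pore subunits 8.65% ± 0.25, silent subunits 6.00% ± 0.13 and calcium- or sodium-activated subunits 4.28% ± 0.15 (SD, n = 3). The differences between classes were many times the spread between WT libraries. By prefix, the inward rectifiers (Kcnj) had the highest sum at 145 FPKM, followed by the Kv channel-interacting proteins (Kcnip) at 90.5, the beta subunits (Kcnab) at 74.7 and the EAG, ERG and ELK subunits (Kcnh) at 74.5. Two-pore subunits (Kcnk) summed to 67.8 FPKM, Kv1 subunits (Kcna) to 65.5 and Kv4 subunits (Kcnd) to 64.8.

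Families differed in how evenly their members contributed. In the Kv4 family a single subunit accounted for most of the sum, with Kcnd2 at 57.2 FPKM, Kcnd3 at 4.47 and Kcnd1 at 3.12. The Kv1 family was spread over several genes, with Kcna4 at 17.4 FPKM, Kcna1 at 16.9, Kcna2 at 15.1 and Kcna5 at 10.7, and with Kcna3 and Kcna6 at 2.73 and 2.72. Kv3 subunits, known for the fast spikes of parvalbumin interneurons, included Kcnc1 at 11.3 FPKM, with Kcnc2 (1.90) and Kcnc4 (1.79) well below it. The M-type family was led by Kcnq3 at 29.3 FPKM with Kcnq5 at 12.8.

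Silent subunits do not form channels alone but modify other voltage-gated channels. The leading silent genes were Kcnf1 at 13.6 ± 0.42 FPKM, Kcnv1 at 11.9 ± 0.23, Kcns2 at 7.98 ± 0.41 and Kcng1 at 7.14 ± 0.54 (SD, n = 3 each). Together the 10 silent genes summed to 47.0 FPKM. Among calcium- and sodium-activated channels, Kcnma1 of the BK channel (9.71 FPKM), Kcnn3 of the SK family (9.53) and the sodium-activated Kcnt1 (9.21) were close to each other, and their WT ranges overlapped.

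Among inward rectifiers, the constitutively active Kir2 group was represented by Kcnj4 (60.5 FPKM), Kcnj2 (10.2) and Kcnj12 (2.46). The G protein-gated group, which responds to dopamine and other transmitters in many neurons, was low, with Kcnj9 at 4.75 FPKM, Kcnj3 at 0.89, Kcnj6 at 0.28 and Kcnj5 at 0.13. Kcnj11, the pore of ATP-sensitive channels, stood at 18.3 FPKM and its vascular relative Kcnj8 at 0.91, beside 2.91 FPKM for Abcc8 and 1.71 for Abcc9, which encode the sulfonylurea receptors of these channels. Kcnj16, which joins Kcnj10 in glia, had 1.18 FPKM against 44.7 for Kcnj10.

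No reads were counted in any of the 6 libraries for Kcna7, Kcne1, Kcnk16, Kcnk18 and Kcnmb3, and 2 further genes, Kcnj1 and Kcnk15, had none in WT. A count of 0 over the WT group allows a level of up to 0.0641 CPM (3 counts, counting error only). The KCNE family, single-pass subunits known mostly from heart and epithelia, was at most 0.10 FPKM in WT except for Kcne1l at 3.44 FPKM. Kcnj13 and Kcne2, which are abundant in choroid plexus, had at most 5 counts in any library, while the choroid plexus marker list summed to 26.7 to 40.2 CPM in WT and 32.9 to 37.5 in Ash1l het.

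Several members lie next to each other in the genome, some at different levels. On chromosome 6 (GRCm38), Kcna5, Kcna1 and Kcna6 stand in a row within 126532551 to 126740674, at 10.7, 16.9 and 2.72 FPKM in WT. On chromosome 3, Kcna3, Kcna2 and Kcna10 stand in a row within 107036169 to 107195721, at 2.73, 15.1 and 0.025 FPKM. Kcnj9 and Kcnj10 are 11.9 kb apart on chromosome 1, on opposite strands, at 4.75 and 44.7 FPKM. These were chosen after their levels were seen. Among the 10 neighbouring pairs within 200 kb, Kcnip1 and Kcnmb1, which overlap each other, were close, at 0.89 and 0.75 FPKM.

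Start windows of the genes were read from RefSeq, GRCm38.p6, from 250 bases before to 50 bases after the annotated start, and 68 of the 93 genes had one. Of these, 35 placed the start exactly at the gene boundary of the deposited table and 46 within 100 bases of it. The farthest were those of Kcnip4 (239248 bases), Kcnj12 (43240), Kcnh2 (22013) and Kcnj1 (21567), and all 68 were kept in the groups by level below. Which start is used in these libraries was not measured. The upstream 250 bases of the 2 highest genes, Kcnj4 and Kcnd2, and of 2 genes with 0 counts, Kcnk18 and Kcna7, are shown because they illustrate the range in CpG dinucleotides, which are in capitals. The windows lie at chr15:79505242-79505491 (minus strand) for Kcnj4, chr6:21215096-21215345 (plus) for Kcnd2, chr19:59219398-59219647 (plus) for Kcnk18 and chr7:45405710-45405959 (plus) for Kcna7, and each is written 5′ to 3′ on the strand of the gene.
Kcnj4: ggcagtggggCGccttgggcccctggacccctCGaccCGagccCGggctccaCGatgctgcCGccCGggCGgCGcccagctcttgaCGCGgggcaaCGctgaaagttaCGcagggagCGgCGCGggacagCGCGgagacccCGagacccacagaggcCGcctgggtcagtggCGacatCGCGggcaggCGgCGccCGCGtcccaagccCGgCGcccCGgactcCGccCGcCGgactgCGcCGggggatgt
Kcnd2: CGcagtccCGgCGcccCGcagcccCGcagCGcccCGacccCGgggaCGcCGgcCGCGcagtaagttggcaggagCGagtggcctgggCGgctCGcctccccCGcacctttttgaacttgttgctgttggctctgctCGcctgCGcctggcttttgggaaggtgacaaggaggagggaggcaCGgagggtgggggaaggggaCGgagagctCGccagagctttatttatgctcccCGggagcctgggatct
Kcnk18: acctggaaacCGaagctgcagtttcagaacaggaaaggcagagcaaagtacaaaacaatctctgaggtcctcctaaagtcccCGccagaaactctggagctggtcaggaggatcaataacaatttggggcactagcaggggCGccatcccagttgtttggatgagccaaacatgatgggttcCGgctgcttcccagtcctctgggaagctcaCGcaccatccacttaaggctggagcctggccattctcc
Kcna7: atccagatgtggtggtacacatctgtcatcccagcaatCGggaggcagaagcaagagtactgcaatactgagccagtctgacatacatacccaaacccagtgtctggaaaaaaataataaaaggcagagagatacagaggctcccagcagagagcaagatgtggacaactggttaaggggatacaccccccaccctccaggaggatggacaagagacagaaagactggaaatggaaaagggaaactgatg
The Kcnj4 stretch holds 35 CpG dinucleotides and that of Kcnd2 22, against 5 for Kcnk18 and 1 for Kcna7.

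Over all 68 windows the CpG count was higher in genes with a higher WT level. In whole windows of 300 bases, the median was 5.5 CpG for the 14 genes under 0.1 FPKM, 9.5 for the 16 genes from 0.1 to 1, 16.5 for the 20 genes from 1 to 10 and 20 for the 18 genes at or above 10 FPKM, against 7.0 over all 32851 windows of the table. Windows with 10 or more CpG were 14.3%, 50%, 65.0% and 72.2% of these groups and 43.5% of all windows. The ranges overlapped widely. Kcnf1 and Kcnab1, at 13.6 and 49.4 FPKM, had 3 CpG each, and Kcnk15, with no WT counts, had 24. The letters GGGCGG on either strand, a binding motif of the Sp family, were in 28.6%, 56.2%, 55.0% and 61.1% of the groups and in 35.7% of all windows, and this motif holds a CpG itself. TATAAA on either strand was in 3 of the 68 windows (4.4%, against 13.6% of all), and TGACGTCA, the palindromic cyclic AMP response element, in 0 of 68 (1.8% of all). These are matches of letters in a window, and no methylation or binding was measured.

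**Figure D2:**
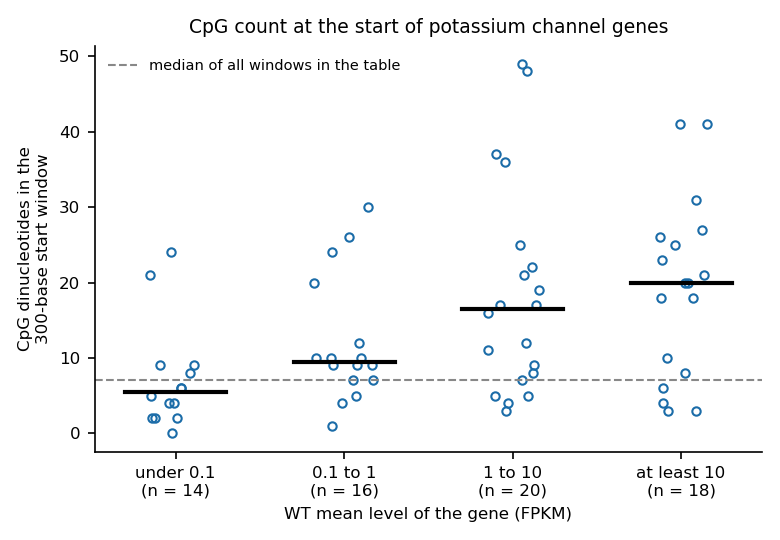
CpG dinucleotides in the 300-base start window (vertical axis) of the 68 potassium channel genes with a RefSeq window, in 4 groups by WT mean level (horizontal axis, FPKM), with one circle per gene, a black bar at the group median and a dashed line at the median of all windows in the table. The medians rise from 5.5 to 20 across the groups, while each group holds genes with fewer than 5 CpG.

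Ash1l het and WT were then compared on counts. Of the 93 genes, 73 passed the filter on low counts, and 0 of the 73 passed the edgeR quasi-likelihood test at an adjusted p under 0.05, where 0.0131% of all 15267 tested genes (2 genes) did. The smallest adjusted p of a potassium channel gene was 0.783. At an unadjusted p under 0.05 there were 4 genes (5.48%), where 5.78% of all tested genes passed. DESeq2 called 0 of the 73, with 0.255% of all genes called, the exact test of edgeR 0 with 0.255% and limma-voom 0 with 0.0131%. At an unadjusted p under 0.05 they gave 5, 4 and 6 genes. The share of all tested genes at that threshold was computed for the quasi-likelihood fit alone, so these counts cannot be set against it.

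By sign alone, 49 of the 73 (67.1%) were lower in Ash1l het, where 48.6% of all tested genes were. The median log2 fold change was -0.10 against 0.006 over all genes. Across the fits of all 6 libraries the share lower ran from 63.1% to 71.2%, and that of all genes from 42.6% to 50.3%. It was 65.3%, 56.8% and 62.7% without Ash1l het replicate 1, 2 or 3 alone, against 49.2%, 50.5% and 48.8% of all genes. Without Ash1l het replicates 1 and 2, the libraries that stood apart, 39 of 78 (50%) were lower and the median was 0.002, in a fit where the lone Ash1l het library is assumed to vary like WT. In the 2 libraries left out, the summed markers of spiny projection neurons were the lowest of the 6, and those of oligodendrocytes, astrocytes and blood cells the highest, as given above. The part of these in the sign count was not tested.

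Summed over all 93 genes, the level was 776, 781 and 794 FPKM in WT and 683, 736 and 773 FPKM in Ash1l het, lower in each Ash1l het library. With TMM scaling the sums, in TMM-scaled counts per kilobase, were 776, 812 and 798 in WT and 677, 692 and 799 in Ash1l het, and the sum of Ash1l het replicate 3 fell inside the range of WT. Auxiliary subunits had lower sums in all 3 Ash1l het libraries under FPKM, TPM and TMM scaling (139, 165 and 161 FPKM, against 170, 173 and 177 in WT). The share of each class in the summed level changed by less than the spread between Ash1l het libraries, with voltage-gated subunits at 40.6% ± 1.86 in Ash1l het and inward rectifiers at 18.9% ± 1.67 (SD, n = 3 each).

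**Figure D3:**
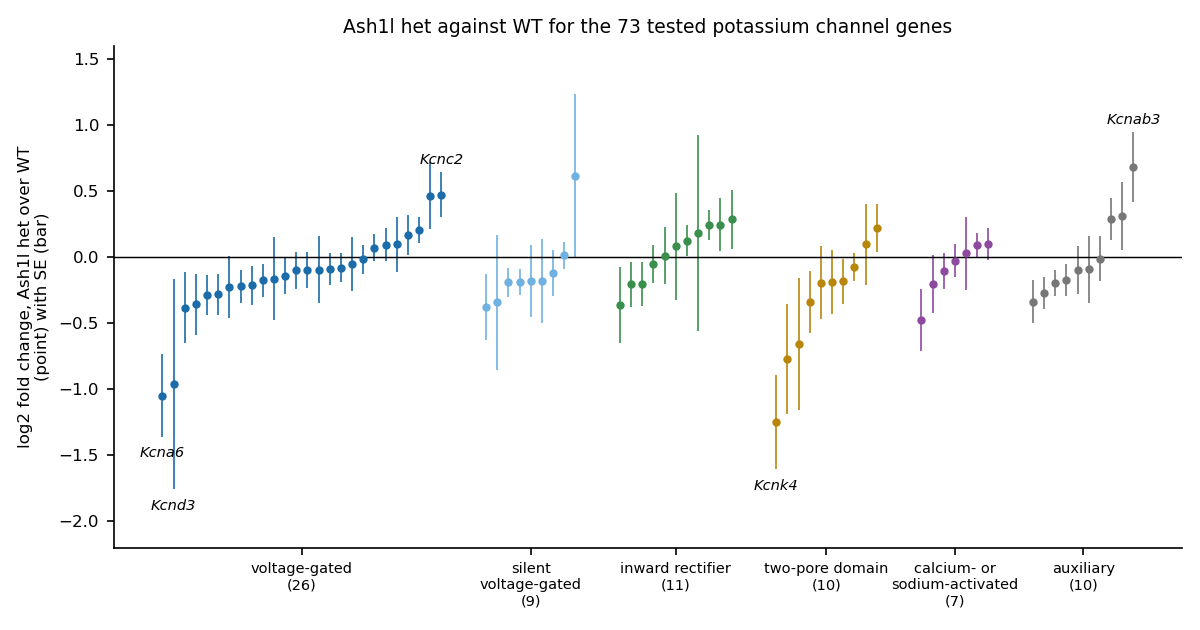
Log2 fold change of Ash1l het over WT (points) with its SE (bars) for the 73 tested potassium channel genes. Genes are grouped by class along the horizontal axis, with the number tested in parentheses, and ordered by fold change within a class. The 4 genes with an unadjusted p under 0.05 and Kcnd3 are labelled; most points lie within 0.5 of 0, and the bar of Kcnd3 is the longest below 0.

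Among voltage-gated pore subunits, 19 of 26 tested genes were lower in Ash1l het by sign and 7 higher (median log2 fold change -0.10), and 2 had an unadjusted p under 0.05. Without Ash1l het replicates 1 and 2 the split was 12 lower and 16 higher of 28 tested. Kcna6, encoding Kv1.6, had 26.4, 55.8 and 60.9 CPM in WT, beside 23.2, 27.0 and 19.2 CPM in Ash1l het. WT replicate 1 was as low as the Ash1l het libraries, so the groups overlapped, and Kcna6 was the only one of 57 potassium channel genes with a mean of at least 1 FPKM whose WT libraries differed 2-fold or more (1.75%, where 3.42% of all such genes did). The log2 fold change was -1.05 (SE 0.31, edgeR quasi-likelihood adjusted p = 0.825), and -1.32 without Ash1l het replicates 1 and 2. The antisense gene Gm26673 overlaps Kcna6 and had 118, 125 and 142 counts in WT and 159, 184 and 173 in Ash1l het. The sources used here do not give whether strand was used in counting, so reads of these 2 genes may not be fully separated.

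Kcnc2, encoding the Kv3.2 subunit of fast-spiking interneurons, had 12.2, 10.3 and 13.2 CPM in the WT group and 16.5, 13.7 and 19.2 in the Ash1l het group. Every Ash1l het library was above every WT library, a difference of 0.47 on the log2 scale (SE 0.17, edgeR adjusted p = 0.857). The difference was 0.69 without Ash1l het replicates 1 and 2. The interneuron marker list, of which Pvalb is a member, summed to 281 to 366 CPM in WT, beside 255 to 376 in Ash1l het. By sign, 4 of its 8 genes were higher in Ash1l het and 4 lower, with Kit at -0.23 and Lhx6 at -0.18 on the log2 scale. Pvalb itself, the defining marker of the fast-spiking type, had 6.29, 6.46 and 11.1 CPM in WT libraries against 6.26, 16.3 and 17.7 in Ash1l het, and its part in the Kcnc2 values was not tested.

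Kcna4, the A-type subunit Kv1.4, also did not overlap between groups, at 88.3, 94.0 and 91.4 CPM in WT, beside 105, 113 and 98.3 in Ash1l het (log2 fold change 0.21, SE 0.10, edgeR adjusted p = 0.858, and 0.11 without Ash1l het replicates 1 and 2). Counting all members, 5 genes were higher in Ash1l het without overlap (6.85%, where 6.18% of all tested genes were): Kcnc2, Kcna4, Kcnj2, Kcnt1 and Kcnip1. Kcnip1 overlaps Kcnmb1 on the other strand, so its reads may not be fully separated. A further 6 were lower without overlap (8.22%, where 5.53% of all were): Kcnk4, Kcnab1, Kcnip3, Kcnf1, Kcns2 and Kcnu1. Both shares were near those of all genes.

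Kcnd3, which encodes the A-type subunit Kv4.3, had the largest ratio between its highest and lowest Ash1l het library among members with a mean of at least 1 FPKM. It had 55.7, 57.6 and 49.7 CPM in WT libraries, against 9.93 and 11.1 for replicates 1 and 2 of Ash1l het, and 62.3 CPM in Ash1l het replicate 3. The first 2 Ash1l het libraries were thus far below WT and the third above it, and the fit over all 3 gave a log2 fold change of -0.96 (SE 0.79, edgeR quasi-likelihood adjusted p = 0.907). With Ash1l het replicate 3 left out, the difference grew to -2.37 on the log2 scale and passed (SE 0.14, edgeR adjusted p = 0.0032). Without Ash1l het replicates 1 and 2 it was 0.20 (adjusted p = 0.932). Of 11863 genes with a mean of at least 1 FPKM, 4 had both of these libraries under 1/2 of the lowest other library, and Kcnd3 was the only potassium channel gene among them. That criterion was set after the pattern was seen in Kcnd3, which was therefore bound to meet it, so the count is a description only. The antisense gene Kcnd3os had 8 to 22 counts per library, against 146 and 170 counts of Kcnd3 in Ash1l het replicates 1 and 2. The related A-type subunit Kcnd2 did not follow this pattern, at 278, 314 and 305 CPM in the WT group and 289, 226 and 321 in the Ash1l het group (log2 fold change -0.10, SE 0.14, edgeR adjusted p = 0.934).

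Other members also had single libraries far from the rest. Among 57 potassium channel genes with a mean of at least 1 FPKM, 6 differed 2-fold or more between the highest and lowest Ash1l het library (10.5%, where 7.93% of all such genes did): Kcnd3, Kcnj4, Kcnq5, Kcng1, Kcns1 and Kcnk6. The low library was not the same one in each. Kcnj4 was low in Ash1l het replicate 1 alone, at 57.4 CPM beside 127 and 123 in the other Ash1l het libraries and 123, 143 and 130 in WT. Kcnh4, a relative of Kcnh3, was low in the same library at 38.8 CPM, beside 69.8 and 75.6 in Ash1l het and 76.8, 86.6 and 73.0 in WT. Without Ash1l het replicates 1 and 2 the log2 fold change of Kcnj4 went from -0.36 to -0.10 and that of Kcnh4 from -0.36 to -0.059. Of the 11 spiny projection neuron markers, 6 were lowest of the 6 libraries in Ash1l het replicate 1, with Ppp1r1b at 734 CPM against 1246 to 1466 elsewhere, while others were not, with Tac1 at 195 CPM against 147 to 161 in WT. Their part in the values of Kcnj4 and Kcnh4 was not tested.

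Kcnq5, an M-type subunit, was low in Ash1l het replicate 3, at 88.5 CPM beside 198 and 141 in Ash1l het and 192, 163 and 202 in WT (log2 fold change -0.38, SE 0.27, edgeR adjusted p = 0.897). With replicate 3 as the only Ash1l het library the log2 fold change was -1.07 (SE 0.13) and passed at an adjusted p of 0.0154, a fit in which that library is assumed to vary like WT. Its relative Kcnq3 had 424, 436 and 448 CPM in WT libraries against 456, 325 and 440 in Ash1l het, and was low in replicate 2 instead. Kcng1, a silent subunit, was low in replicates 1 and 2, at 35.7 and 25.3 CPM beside 54.5 in replicate 3 and 53.8, 49.4 and 47.3 in WT. Its log2 fold change was -0.38, and 0.12 without replicates 1 and 2.

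Among the genes Kcnc1, Kcnh3, Kcnh2, Kcna1 and Kcna2, none passed the test and the groups overlapped in each. Kcnc1, a relative of Kcnc2, had 118, 129 and 136 CPM in WT libraries against 101, 105 and 140 in Ash1l het, so replicates 1 and 2 were below WT and replicate 3 above it. Without Ash1l het replicates 1 and 2 the log2 fold change of Kcnc1 went from -0.14 to 0.13. Kcnh3 had 121, 138 and 136 CPM in WT, beside 88.5, 124 and 128 in Ash1l het, lowest in replicate 1 as for Kcnh4, and its log2 fold change went from -0.22 to -0.039 without replicates 1 and 2. Kcnh2, the ERG channel known from cardiac repolarisation, had 31.5, 36.6 and 35.5 CPM in WT, beside 23.8, 26.4 and 34.6 in Ash1l het (log2 fold change -0.29, SE 0.15, edgeR adjusted p = 0.878). It was -0.46 without replicate 3 and -0.001 without replicates 1 and 2. The axonal Kv1 genes Kcna1 and Kcna2 differed little, with log2 fold changes of -0.02 (95% interval -0.23 to 0.20) and 0.07 (-0.13 to 0.27).

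**Figure D4:**
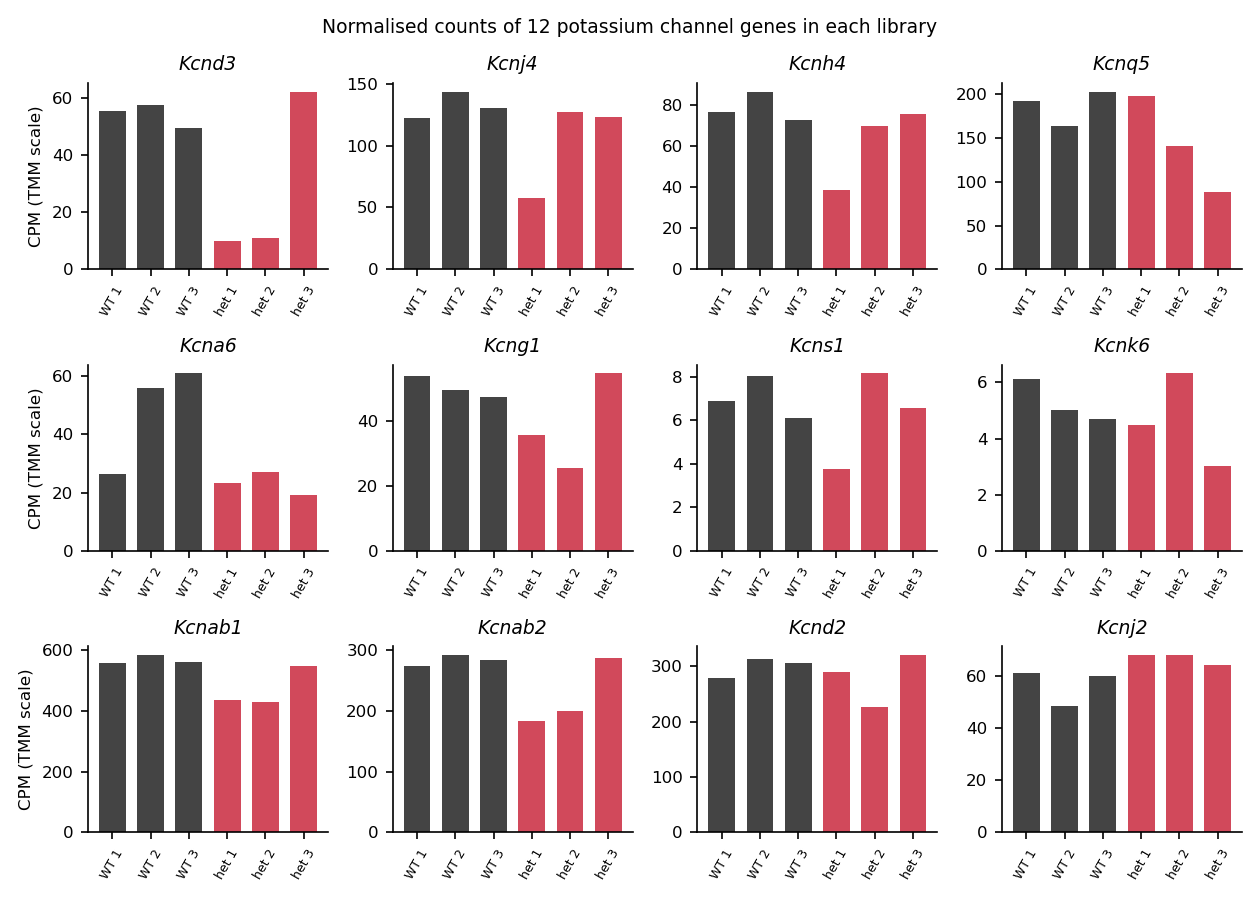
Normalised counts (CPM, TMM scale) of 12 potassium channel genes, with one bar per library (dark, 3 WT libraries; red, 3 Ash1l het libraries) and each vertical axis starting at 0. The low bars of Kcnd3 are Ash1l het replicates 1 and 2, those of Kcnj4, Kcnh4 and Kcns1 replicate 1, and that of Kcnq5 replicate 3; Kcna6 is low in WT replicate 1 as well as in all Ash1l het libraries.

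Silent subunits were lower in Ash1l het by sign in 7 of 9 tested genes (median log2 fold change -0.18), and in 5 of 9 without Ash1l het replicates 1 and 2. Kcnf1 had 65.7, 65.5 and 67.3 CPM in WT libraries against 62.6, 58.1 and 53.5 in Ash1l het, each below WT (log2 fold change -0.19, SE 0.10, edgeR adjusted p = 0.878, and -0.30 without Ash1l het replicates 1 and 2). Kcns2 behaved likewise, at 34.1, 38.3 and 33.6 CPM in WT, beside 29.6, 31.7 and 31.4 in Ash1l het (log2 fold change -0.19, SE 0.11, edgeR adjusted p = 0.886).

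Auxiliary subunits comprised 7 lower and 3 higher genes of 10 tested (median log2 fold change -0.10), and 8 lower and 4 higher of 12 without Ash1l het replicates 1 and 2. The beta subunits differed in sign. Kcnab1 had 557, 583 and 561 CPM in WT libraries against 435, 428 and 547 in Ash1l het, each below WT (log2 fold change -0.27, SE 0.12, edgeR adjusted p = 0.858). It was -0.053 without Ash1l het replicates 1 and 2. Kcnab2, which guides Kv1 channels to the axon, had 274, 292 and 284 CPM in WT, beside 183, 200 and 288 CPM in Ash1l het, so replicates 1 and 2 were low and replicate 3 was not (log2 fold change -0.34, SE 0.16, adjusted p = 0.859, and 0.023 without those 2). Kcnab3 was at 4.88, 4.12 and 6.95 CPM in the WT group and 6.05, 8.80 and 10.7 in the Ash1l het group, with overlap (log2 fold change 0.68, SE 0.27, edgeR adjusted p = 0.857, and 1.005 without Ash1l het replicates 1 and 2). Of the Kv4 partners, Kcnip3 was lower without overlap, at 111, 121 and 126 CPM in Ash1l het and 128, 142 and 140 in WT (log2 fold change -0.20, SE 0.10, adjusted p = 0.878, and -0.12 without Ash1l het replicates 1 and 2), and Kcnip2 overlapped at 220, 295 and 259 CPM against 277, 300 and 298 in WT.

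Inward rectifiers were the only class with more genes higher than lower by sign, at 7 of 11 tested (median log2 fold change 0.08), a split that limma-voom and the replicate block turned to 5 of 11. Kcnj2, encoding Kir2.1, had 61.1, 48.3 and 60.1 CPM in WT libraries against 68.1, 68.0 and 64.3 in Ash1l het, each above WT (log2 fold change 0.24, SE 0.12, edgeR adjusted p = 0.859). The glial Kcnj10 had 257, 239 and 240 CPM in WT, beside 283, 230 and 288 CPM in Ash1l het, with overlap (log2 fold change 0.12, SE 0.12, 95% interval from the SE -0.10 to 0.35, and 0.23 without Ash1l het replicates 1 and 2). Kcnj11 had 21.1, 22.5 and 21.8 CPM in the WT group and 15.4, 17.3 and 23.9 in the Ash1l het group, low in replicates 1 and 2 (log2 fold change -0.21, and 0.13 without them). Kcnj8, found in pericytes and smooth muscle, ranged from 3.30 to 4.64 CPM in WT and from 4.28 to 5.60 in Ash1l het, where the pericyte and smooth muscle markers summed to 167 to 201 CPM in WT and 186 to 230 in Ash1l het.

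Two-pore domain subunits, the background leak channels, were lower by sign in 8 of 10 tested genes (median log2 fold change -0.19), and in 5 of 10 without Ash1l het replicates 1 and 2. Kcnk4, the mechanosensitive TRAAK channel, had the smallest p of all potassium channel genes, with 1.41, 1.49 and 1.27 CPM in WT libraries against 0.680, 0.456 and 0.605 in Ash1l het. Each Ash1l het library was below each WT library, and the gene was sparse, at 17, 25 and 22 counts in WT and 10, 7 and 11 in Ash1l het. The log2 fold change was -1.25 (SE 0.36), and the edgeR adjusted p was 0.783. Without Ash1l het replicates 1 and 2 the log2 fold change was -1.19. Kcnk12 had 1.41, 0.897 and 1.33 CPM in WT, beside 0.408, 0.912 and 0.770 CPM in Ash1l het, with overlap (log2 fold change -0.77, SE 0.41, adjusted p = 0.878). Kcnk1, the highest two-pore gene, had 91.2, 97.4 and 95.5 CPM in the WT group and 81.7, 86.7 and 101 in the Ash1l het group, a log2 fold change of -0.08 (95% interval -0.29 to 0.14). Kcnk2, the mechanosensitive TREK1 channel, had 125, 140 and 163 CPM in WT, beside 120, 99.7 and 157 in Ash1l het, with overlap (log2 fold change -0.19, and 0.14 without Ash1l het replicates 1 and 2). Kcnk9 was lowest in Ash1l het replicate 2, at 3.06 CPM (log2 fold change -0.34, SE 0.23, edgeR adjusted p = 0.893, and -0.053 without replicates 1 and 2).

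Calcium- and sodium-activated channels differed least by median (log2 fold change -0.03, 4 of 7 tested genes lower by sign, and 3 of 7 on the FPKM scales). Kcnn3, encoding the SK3 channel, is the potassium channel gene nearest to Ash1l (GRCm38 chromosome 3, 88950622 to 89079375), 440.8 kb away at 89520164 to 89675132, and 8 further members lie on that chromosome. It had 113, 113 and 99.4 CPM in WT libraries against 122, 91.3 and 105 in Ash1l het, with overlap (log2 fold change -0.03, SE 0.13, 95% interval -0.28 to 0.21). Kcnma1 had 109, 99.4 and 99.7 CPM in WT, beside 106, 75.7 and 104 in Ash1l het (log2 fold change -0.11, SE 0.14). Kcnt1 was slightly above WT in each Ash1l het library, at 186, 189 and 199 CPM against 169, 185 and 185 (log2 fold change 0.09, SE 0.10, edgeR adjusted p = 0.922, and 0.14 without Ash1l het replicates 1 and 2). Kcnu1, known as a sperm channel, was counted at 2.93 to 3.47 CPM in WT and 2.09 to 2.52 in Ash1l het (log2 fold change -0.47, SE 0.23, edgeR adjusted p = 0.875).

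Proteins that assemble with potassium channels but carry other names were read from the same fit. Of 22 listed genes 20 were tested, 8 were higher and 12 lower in Ash1l het by sign, the median log2 fold change was -0.05 and 0 passed. Lgi1, whose protein associates with Kv1 channels, was chosen after its values were seen. It had 87.2, 95.3 and 86.6 CPM in WT libraries against 109, 70.8 and 167 in Ash1l het, so the groups overlapped. Its log2 fold change was 0.37 (SE 0.29) over all 6 libraries. It was 0.90 with replicate 3 as the only Ash1l het library, a fit in which that library is assumed to vary like WT. Dpp10, a membrane partner of Kv4 channels, had the smallest p, with 61.0, 56.9 and 52.2 CPM in the WT group and 83.8, 72.8 and 57.8 in the Ash1l het group (log2 fold change 0.33, SE 0.14, edgeR adjusted p = 0.857, and 0.028 without Ash1l het replicates 1 and 2). Adam23, a partner of the Kv1-associated protein LGI1, had 158, 145 and 303 CPM in WT libraries against 328, 266 and 319 in Ash1l het, so WT replicate 3 lay among the Ash1l het libraries. The scaffold gene Dlg4 had 671, 763 and 763 CPM in WT, beside 492, 659 and 710 CPM in Ash1l het, with overlap (log2 fold change -0.24, SE 0.15, edgeR adjusted p = 0.889, and -0.045 without Ash1l het replicates 1 and 2). Lrrc55, an auxiliary subunit of BK channels, had 12.9 to 13.9 CPM in WT and 9.71 to 13.0 in Ash1l het, also with overlap.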

How the data were processed

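Dorsal striatum RNA from 3 Ash1l het and 3 WT libraries, grouped by sample title, was lysed in TRIzol and made into stranded mRNA libraries, per the labels' protocols. The authors deposited a table of raw counts and FPKM for each gene. CASAVA, FastQC, HISAT2, StringTie, edgeR and the build GRCm38 are named, per the submitters' processing notes. The sources used here give neither their settings nor whether counting used strand. The 6 per-sample files held the same counts as the series table. Library totals ran from 12080663 to 18798694 counts, and limits from counts cover counting error only.

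Levels are the deposited FPKM. Counts of the whole table were TMM-scaled and filtered (filterByExpr, minimum count 10), and edgeR 4.0.16 in R 4.3.3 fitted genotype alone by robust quasi-likelihood. Among the 15267 genes kept, calls needed an adjusted p under 0.05 (Benjamini-Hochberg, all genes kept). Log2 fold changes compare Ash1l het with WT. SE was derived from the test, as the absolute log2 fold change over the square root of its F value. The 95% intervals use this SE with a normal approximation and are narrower than the F test would give. An exact permutation test of 3 against 3 cannot go below 0.1 and was not used. The steps were tested on simulated counts.

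The potassium channel genes, partner genes and marker lists were chosen with earlier results of these data known. The rule for genes named was the 10 highest, the highest of each prefix, called genes, the 12 smallest p-values, genes with separate groups and a mean of 1 FPKM or more, the 2 smallest p-values per class, genes within 1 Mb of Ash1l and 4 partners. Every other member named, such as Kcnd3, Kcnq5, Kcnh4, Kcng4, Kcns1, Kcnk6 and Kcnip1, was chosen after its values were seen. Counts and sums cover all members, of which 3 are not reported singly here. Of the members, 30 overlap another gene row, 17 of them on the opposite strand alone.

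Alternatives were DESeq2 1.42.0, the exact test of edgeR, limma-voom (limma 3.58.1), scaling by RLE or the upper quartile, no filter or one of 1 CPM in 3 libraries, limma with pseudocounts of 0.1 and 1 on log2 FPKM (mean 0.5 FPKM or more), a threshold of 0.1, the replicate number as a block and each library left out. Leaving out Ash1l het replicates 1 and 2 together was added after seeing the data.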

Additional observations from a re-analysis of the deposited data

How the results depend on the processing

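The count of potassium channel genes called was 0 in all alternatives with 6 libraries, and ran from 0 to 1 with a library left out (Kcnd3, without Ash1l het replicate 3). It was 1 (Kcnq5) without Ash1l het replicates 1 and 2, an alternative chosen after seeing the data. Genes with an unadjusted p under 0.05 numbered 4. Leaving out a library gave 2 (WT replicate 2) to 13 (Ash1l het replicate 3). The share of all tested genes at that threshold was not computed for these alternatives, so the counts say nothing particular to potassium channel genes. Over all genes, 2 were called, against 39 with DESeq2, 39 with the exact test, 1 to 13 with a library left out and 50 without both. Levels as CPM, not per length, kept 6 of the 10 highest genes.

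For the replicate block, same-numbered libraries did not deviate together from their group means (correlations 0.056, -0.075 and 0.011). With 3 libraries per group, these values cannot decide whether the numbers pair the libraries. With the replicate block 3 genes were called in all, 0 of them potassium channel genes. Of the potassium channel genes, 6 had an unadjusted p under 0.05 in that fit, where the share over all genes was not computed.

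The check on direction covered 41 members with a fitted fold change, and 711 of 733 values kept their direction. Some members described above, such as Kcnj11, Kcna1, Kcna2 and Kcnk9, were not among the 41. Among the 41, without both Ash1l het replicates 1 and 2 the log2 fold change turned positive for Kcnab2 (0.023), Kcng1 (0.12), Kcnd3 (0.20), Kcnk2 (0.14), Kcnc1 (0.13), Kcnma1 (0.018), Kcnd2 (0.10), Kcnq3 (0.015) and Kcnk1 (0.094). Outside the 41 it also turned positive for other members, such as Kcnj11 (0.13) and Kcna1 (0.14). On both FPKM scales Kcnn3 was at 0.002. With a library left out, values ran from -0.192 to 0.035 for Kcnma1, -0.218 to 0.026 for Kcnd2, -0.189 to 0.039 for Kcnq3, -0.142 to 0.065 for Kcnn3, -0.261 to 0.045 for Kcnmb4, -0.433 to 0.068 for Kcns1, -0.362 to 0.101 for Kcne1l, -0.494 to 0.039 for Kcnk6 and -0.038 to 0.073 for Kcnv1. The cause was not tested.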

Other observations

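Some members with low levels had a single library far from the others, beyond those described above. Kcnj6, a G protein-gated inward rectifier subunit, had 2.07, 1.49 and 1.68 CPM in WT, beside 4.62, 0.652 and 0.715 CPM in Ash1l het, so Ash1l het replicate 1 was the highest of the 6 and the other 2 were the lowest. Its relative Kcnj3 was also highest in Ash1l het replicate 1 and lowest in replicate 2, at 12.3 and 6.71 CPM beside 9.44 to 10.4 in the other 4 libraries. Markers of cortical neurons summed to 102, 21.1 and 63.8 CPM in Ash1l het and 46.6 to 76.5 in WT, highest in replicate 1 and lowest in replicate 2 as for Kcnj3. In Ash1l het replicate 3, where Kcnj6 was low, the marker sum lay within the WT range. The part of these markers in the values of Kcnj6 and Kcnj3 was not tested. Kcng4, a silent subunit, ranged from 0.476 to 2.36 CPM in Ash1l het and from 0.538 to 1.74 in WT.

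Kcnc4, the A-type relative of Kcnc2, had 6.95, 4.96 and 7.99 CPM in WT, beside 9.79, 6.38 and 11.2 in Ash1l het, with overlap. Kcnk7 had 9 counts in all, and Kcna10 had 3 counts, all in WT. These genes were chosen after their values were seen.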
